A study of Clarias macrocephalus with 14 samples.

Results

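The comparison set the middle ages of a developmental series of the broadhead catfish Clarias macrocephalus, 13, 14 and 16 days post fertilization (dpf), against its earliest ages, 3 and 5 dpf. Its members were chosen by age alone: 6 middle and 4 early libraries, 10 of the 14 in the series, with 2 libraries at each age. Every library was made from RNA of whole fry of unknown sex, so organs and cell types were mixed in each. The study followed early development of an air-breathing fish, and the comparison asks which genes differed between the youngest fry and fry that were more than a week older. The labels do not say whether the libraries of an age came from separate spawns, tanks or pools, so the spread behind each p-value is that between the sequenced samples and can be technical.

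Fish larvae of this kind hatch with a store of yolk and turn within days to feeding from outside. Gills, gut, muscle and skeleton then go on growing, and the fry later take up breathing of air with an organ that forms above the gills. In whole fry a change in a transcript can follow from a change in the size of an organ as well as from a change within its cells. Fewer cells of a type and less RNA per cell cannot be told apart in such samples.

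Levels are estimated read counts, summed over the assembled transcripts that carry the same Gene ID, and given as CPM, counts per 1000000 after scaling for library composition (TMM). Only the 23837 Gene IDs made of digits alone were used, and 18953 of them passed a filter on low counts. The files do not pair Gene IDs with gene names, so changes are described by Gene ID, and neither a pathway nor a tissue marker could be checked. Library totals were 2389483 to 5509264 counts at the early ages and 2787143 to 8837320 at the middle ages. Scaling factors were 0.945 to 1.04 and 0.929 to 1.07.

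The sides separated on the main axis of variation. The first principal component of log2 CPM, which held 32.9% of the variance, placed the 4 early libraries at 52.3 to 77.9 and the 6 middle libraries at -64 to -23.3. The second, with 28.2%, did not follow the sides. It placed 5 dpf at 72 and 82.6, and 3 and 13 dpf together at -66.7 to -44.7.

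**Figure D1:**
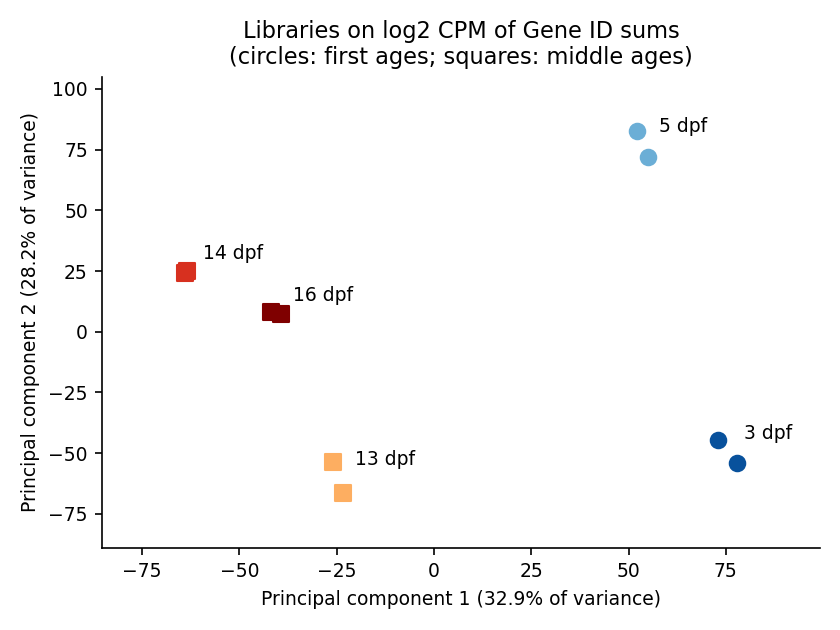
Each point is a library, placed by the first (x axis) and second (y axis) principal component of log2 CPM over 18953 Gene IDs, with circles for 3 and 5 dpf and squares for 13, 14 and 16 dpf. The sides lie apart along x, at 52.3 to 77.9 and at -64 to -23.3, while along y the ages of a side lie far from each other.

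The early ages were nonetheless about as far from each other as from the middle ages. The median absolute difference in log2 CPM was 0.56 between 3 and 5 dpf, within the early side. Across the sides it ran from 0.49, for 5 against 16 dpf, to 0.68, for 3 against 14 dpf. Within the middle side it was 0.56 for 13 against 14 dpf, 0.45 for 13 against 16 dpf and 0.37 for 14 against 16 dpf. The 2 libraries of an age differed by 0.12 at 16 dpf to 0.25 at 3 dpf. A change of at least 2-fold between age means was seen for 4725 Gene IDs (24.9%) between 3 and 5 dpf and for 3888 (20.5%) to 6241 (32.9%) across the sides, so the early ages were no closer to each other than 5 dpf was to 16 dpf.

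With each age weighted equally, 11436 Gene IDs differed between the sides, which is 60.3% of those tested (edgeR's quasi-likelihood test, Benjamini-Hochberg adjusted p under 0.05). Of these, 5732 (30.2%) were higher and 5704 (30.1%) lower at the middle ages. The median log2 fold change over all tested Gene IDs was -0.01, and its median size was 0.49. For scale, the same fit found 9219 Gene IDs (48.6%) that differed between 3 and 5 dpf and 12139 (64%) that differed somewhere among 13, 14 and 16 dpf.

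That test compares the sides with the spread between the 2 libraries of an age, and it does not count the spread between ages of a side. When side was the only term, so that differences between ages counted as spread, 3877 Gene IDs (20.5%) passed, 2011 higher and 1866 lower. That fit takes the 2 libraries of an age as independent, which they are not, so its count can be too high. With age as a random block in limma-voom, where the sides rest on 3 ages against 2, 72 passed (0.38%), and the correlation of libraries of the same age was 0.822. Those were 41 higher and 31 lower, against 1336 and 1569 at an unadjusted p under 0.05. The 41 had log2 fold changes of 1.3 to 3.93 with a median of 1.98, and the 31 had sizes of 1.37 to 4.08 with a median of 1.85. All 72 were also separated in every library, by a median gap between the nearest libraries of 1.17 log2 units for the 41 and 0.87 for the 31.

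Another reading counts a Gene ID as consistently changed when all 6 middle libraries lie on the same side of all 4 early ones. This held for 3313 Gene IDs, 17.5% of those tested, with 1832 higher (9.67%) and 1481 lower (7.81%) at the middle ages. Of these, 3304 (17.4%) also passed the edgeR test, 1827 higher (9.64%) and 1477 lower (7.79%). The remaining 8132 of the 11436 changed Gene IDs had libraries that overlapped between the sides. In 2633 of those that were higher and 2981 of those that were lower, the means of the ages overlapped as well. Consistent change had no test of its own. Libraries of an age were alike (correlation 0.822), so the rule is closer to an ordering of 5 ages than of independent libraries. With so few ages, a random order of them would by itself separate the age means of many Gene IDs. The share that it would give for libraries was not worked out, so 17.5% is not shown to be more than that.

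The larger changes leaned towards rises. Of the 18953 Gene IDs tested, 11436 passed the edgeR test. Among these a 2-fold or larger rise was fitted for 1919 and a fall of that size for 1422. For 4-fold the counts were 423 and 214, and for 16-fold 50 and 45. This lead depended on which ages were included: without 3 dpf, 1599 rose and 2508 fell by a factor of 2 or more, and without 14 dpf 1648 and 1692 did. It depended on the fit and the unit too. For 4-fold, 259 rose and 335 fell with side as the only term. Among transcripts tested in place of Gene ID sums, 1051 rose and 1692 fell. In the edgeR fit by age, some Gene IDs without counts in either library of an age had very large standard errors. These did not pass, even where another age was high. Limma-voom gave 378 rises and 323 falls of at least 4-fold, and DESeq2's test 427 and 312. The part of such Gene IDs in the lead of rises was not tested. Large change did not ensure separate libraries either. Of the 1919 rises of at least 2-fold 973 were consistent (50.7%), and of the 1422 falls 716 were (50.4%). Separation was still more common there than among changes of any size, where 31.9% of the rises and 25.9% of the falls were consistent. Fold and separation are read from the same counts, so part of this is built in. The share did not climb steadily with size. It was 49.7% of the rises and 47.1% of the falls at 8-fold, and 70% and 44.4% at 16-fold.

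**Figure D2:**
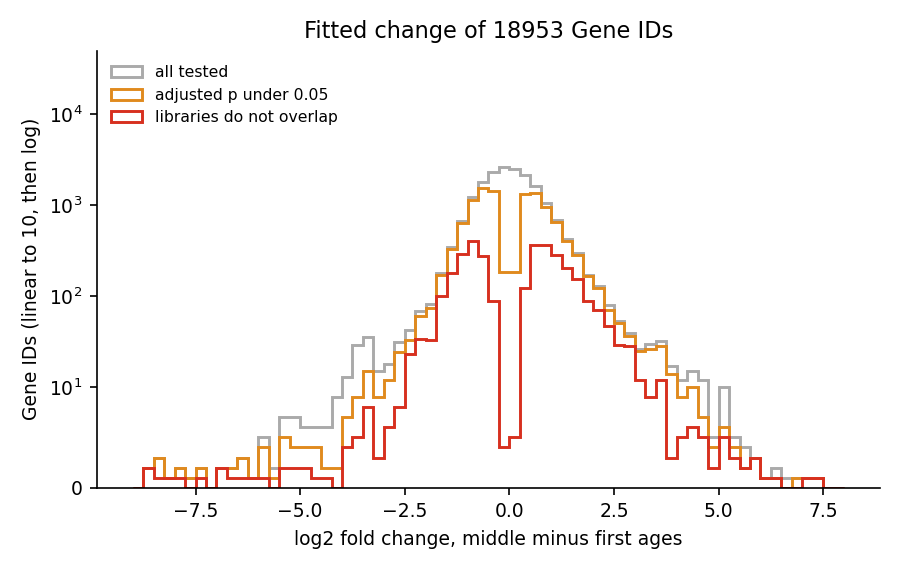
Number of Gene IDs (y axis, linear to 10 and logarithmic above) by fitted log2 fold change, middle minus early ages (x axis, bins of equal width), for all 18953 tested, the 11436 with an adjusted p under 0.05 and the 3313 whose libraries do not overlap between the sides. In total 5732 Gene IDs past the test lie above 0 and 5704 below, with 1919 and 1422 at least 1 log2 unit away, and of those 973 and 716 are separated.

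Most separations were narrow. The gap between the nearest libraries of the sides had a median of 0.25 log2 units for the Gene IDs that were consistently higher and 0.2 for those consistently lower. It was under 0.1 for 417 (22.8%) and 391 (26.4%) of them, so that a small shift in a single library would make them overlap. A gap of at least 1 log2 unit is a 2-fold step between the nearest libraries. Of the 18953 Gene IDs tested, 112 rose and 35 fell with such a gap. At least 2 log2 units separated 12 and 3.

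No Gene ID was switched fully on or off. None had at least 10 counts in each middle library and 0 in each early library, and none the reverse. A minimum of 1 count was then used, chosen after that result. Of the 23837 Gene IDs, 18 were seen in all middle and no early libraries, and 7 in all early and no middle libraries. A count of 0 in a library of this depth does not show that a transcript was absent.

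The Gene ID with the widest gap among those that rose was 108259354, one of 1403 eligible under the rule for named Gene IDs. That rule takes only Gene IDs that passed the edgeR test and had separated libraries. Both therefore hold by choice for all 4 Gene IDs described here and are no further support. It had 2.94 and 4.45 CPM at 3 dpf and 4.21 and 7.09 CPM at 5 dpf. Its middle libraries had 1111 and 2118 CPM at 13 dpf, 70.2 and 71.9 CPM at 14 dpf and 196 and 177 CPM at 16 dpf. All middle libraries were above all early ones, and the middle ages themselves differed widely, with 13 dpf the highest. The fitted log2 fold change was 5.94 (SE 0.226; edgeR adjusted p = 2.18e-11), higher in 6 of 6 middle libraries. Without 13 dpf it was 4.67. With age as a random block the log2 fold change was 6.0, about as large, but it did not pass (adjusted p = 0.142, the highest over its alternatives, whose lowest was 9.55e-75). Of its counts 98.2% lay in 1 of 4 transcripts.

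Gene ID 108270013 had a smaller but more even rise. It had 11.3 and 5.34 CPM at 3 dpf and 13.7 and 15.1 CPM at 5 dpf. The middle libraries had 112 and 121 CPM at 13 dpf, 199 and 196 CPM at 14 dpf and 135 and 128 CPM at 16 dpf. The lowest middle library was 7.27-fold above the highest early one on the log2 scale with a prior count of 2. The log2 fold change was 3.72 (SE 0.113; edgeR adjusted p = 3.57e-12), higher in 6 of 6 middle libraries, and 3.61 with age as a random block (adjusted p = 0.0119; alternatives from 7.73e-109 to 0.0119). Here the counts were shared among 3 transcripts, the largest with 46.1%.

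Among 1261 eligible Gene IDs that fell, 108257051 had the widest gap. It had 174 and 151 CPM at 3 dpf and 144 and 129 CPM at 5 dpf. The middle libraries had 25.3 and 21.3 CPM at 13 dpf, 13.5 and 16.8 CPM at 14 dpf and 6.06 and 8.27 CPM at 16 dpf. Up to 16 dpf the mean level was lower at each later age, from 163 ± 16.1 CPM (SD, n = 2) at 3 dpf to 7.16 ± 1.56 CPM (SD, n = 2) at 16 dpf. The log2 fold change was -3.44 (SE 0.0925; edgeR adjusted p = 1.04e-12), lower in 6 of 6 middle libraries, and -3.54 with age as a random block (adjusted p = 0.00665; alternatives from 1.06e-141 to 0.00665).

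Gene ID 108273473 fell by the larger factor but had a very different course. It had 115 and 55.1 CPM at 3 dpf and 11718 and 14127 CPM at 5 dpf. In the middle libraries it had 6.65 and 9.45 CPM at 13 dpf, 9.31 and 10.9 CPM at 14 dpf and 9.95 and 8.49 CPM at 16 dpf. Both early ages were above every middle library, and 5 dpf stood far above 3 dpf. The log2 fold change was -6.86 (SE 0.165; edgeR adjusted p = 3.52e-13), lower in 6 of 6 middle libraries, but -3.24 without 5 dpf and -10.52 without 3 dpf. With age as a random block the log2 fold change was -6.60, about as large, but it did not pass (adjusted p = 0.0977, the highest over its alternatives, whose lowest was 7.51e-152). A single transcript of its 4 held 99.7% of its counts.

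**Figure D3:**
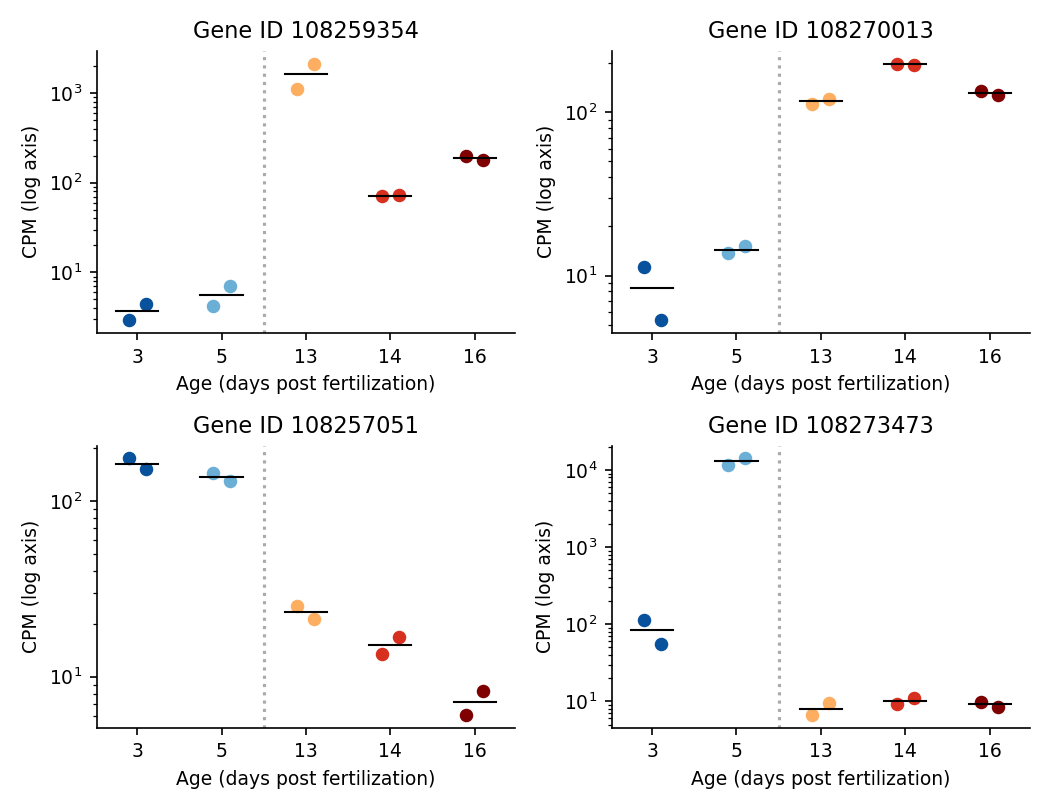
CPM (y axis, logarithmic) of the 4 named Gene IDs in each library by age (x axis), with a bar at the mean of the 2 libraries of an age and a dotted line between the sides. In each panel the middle libraries lie all above or all below the early libraries, which the rule for naming requires. Gene IDs 108259354 and 108273473 differ more between ages of a side than the other 2.

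The consistently changed Gene IDs differed less within a side than Gene IDs in general. The median difference between 3 and 5 dpf was 0.35 log2 units for those higher and 0.37 for those lower at the middle ages, against 0.56 for all tested. The median range over 13, 14 and 16 dpf was 0.54 and 0.63, against 0.76. Both follow in part from the requirement that the sides do not overlap, and they describe the sets without a test. In the edgeR test 1051 of the 1832 and 841 of the 1481 differed among the middle ages, where 64% of all tested did.

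Among the consistently changed Gene IDs, the age at which the change was most pronounced was most often 14 dpf. They were chosen on these same values, so the shares describe the sets without a test. Of the 1832 that were higher, 802 (43.8%) had the highest middle mean at 14 dpf, 530 (28.9%) at 13 dpf and 500 (27.3%) at 16 dpf. Over all tested Gene IDs 35.6% were highest at 14 dpf. Of the 1481 that were lower, 642 (43.3%) had their lowest middle mean at 14 dpf, 565 (38.1%) at 13 dpf and 274 (18.5%) at 16 dpf, and over all tested 34.8% were lowest at 14 dpf. On the early side, 1130 of the 1832 (61.7%) were lowest at 3 dpf, against 51.9% of all tested. For the 1481, the highest early mean was split between 3 dpf (732) and 5 dpf (749).

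Where a changed Gene ID did not separate, the middle age nearest to the early side was counted. Among the 3905 that were higher but overlapped, the lowest middle mean fell at 13 dpf in 1734 (44.4%), at 14 dpf in 1105 and at 16 dpf in 1066. Of all tested Gene IDs 39.5% had their lowest middle mean at 13 dpf. Among the 4227 that were lower but overlapped, the highest middle mean fell at 13 dpf in 1829 (43.3%), at 14 dpf in 1136 and at 16 dpf in 1262, and of all tested 35.5% were highest at 13 dpf. Leaving out an age of the middle side removes 2 libraries each time: 5905 Gene IDs were consistent without 13 dpf, 4381 without 14 dpf and 4368 without 16 dpf. On the early side 7867 were consistent without 3 dpf and 7614 without 5 dpf. Those counts rest on a single early age, which separates more easily by design. They cannot be compared with the counts that leave out a middle age. In 1272 of the 3905 and 1246 of the 4227 the age means were separated and only single libraries overlapped. The 2 libraries of 13 dpf were the least alike of the middle ages. Between them 7.05% of Gene IDs differed at least 2-fold, against 1.48% at 14 dpf and 0.533% at 16 dpf. The part of this spread in the overlaps was not tested.

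Together the consistent Gene IDs held a modest part of each library. The 1832 took 4.32% to 5.17% of the counts in the early libraries and 9.47% to 10.5% in the middle ones. The 1481 took 7.83% to 10.3% in the early libraries and 3.69% to 4.75% in the middle ones. These values describe sets chosen on the same counts. The most abundant Gene IDs were largely shared: of the 20 highest on each side 16 were the same, and of the 100 highest 80. Among the 24 Gene IDs in either list of 20, 10 passed the edgeR test as higher and 9 as lower. Of all tested 60.3% passed, but 78.8% of the 1250 at 100 CPM and over did. Read against the latter share, the 10 and 9 show no excess for such high levels. Of the 24, 1 was consistently higher and 1 consistently lower, where 17.5% of all tested were consistent.

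In libraries outside the comparison, the risen set lay between its early and its middle levels. Its median over the 1832 Gene IDs, with all 14 libraries scaled together, was 3.23 to 3.41 log2 CPM at 3 and 5 dpf, 4.3 to 4.43 at 13 to 16 dpf, and then 3.73 and 3.81 in the 17 dpf and 3.65 and 3.51 in the 24 dpf libraries. The median of the 1481 was 4.48 to 4.63 log2 CPM at the early ages, 3.55 to 3.68 at the middle ages, and then 3.79 and 3.7 in the 17 dpf and 3.65 and 3.68 in the 24 dpf libraries. Medians over all tested Gene IDs were 3.55 to 3.69 from 3 to 16 dpf and 3.31 to 3.51 at 17 and 24 dpf. In each 17 and 24 dpf library the medians of both sets were above that of all tested. Scaling factors fell from 1.22 to 1.41 at 3 to 16 dpf to 0.392 to 0.658 at 17 and 24 dpf, and their part in these later levels was not tested. Sets chosen for their levels at 3 to 16 dpf can also lie closer together elsewhere through that choice. Its part was not tested either.

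**Figure D4:**
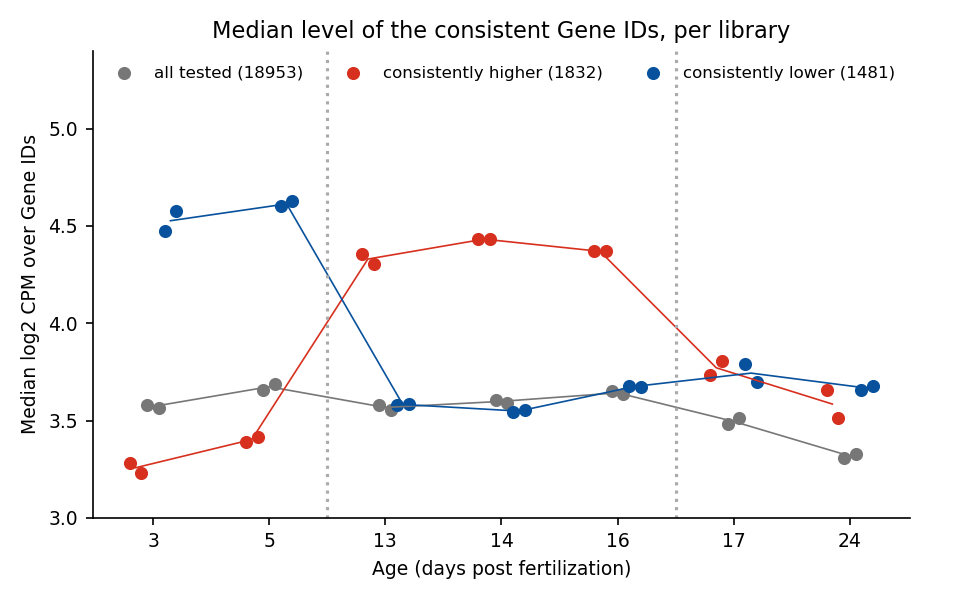
Median log2 CPM (y axis) in each library, by age (x axis), of the 1832 consistently higher, the 1481 consistently lower and all 18953 tested Gene IDs, with lines through the mean of the 2 libraries of an age and dotted lines around the middle ages. The sets were chosen on the 3 to 16 dpf libraries, where they are apart by definition, and at 17 and 24 dpf, which were not used to choose them, their medians lie within 3.51 to 3.81.

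The share of Gene IDs called depended on their level. An adjusted p under 0.05 was reached by 34% of the 1666 with a mean of 1 to 3 CPM, 63.7% of the 6626 at 10 to 30 CPM and 78.8% of the 1250 at 100 CPM and over. Consistent change was found for 10.7%, 18.9% and 18% of these, with the highest share, 22.7%, at 30 to 100 CPM. The median size of the log2 fold change went the other way, from 0.82 at 1 to 3 CPM to 0.4 at 100 CPM and over. Smaller changes could thus be called where counts were high, and a change in a low Gene ID may not have been detectable at this depth.

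**Figure D5:**
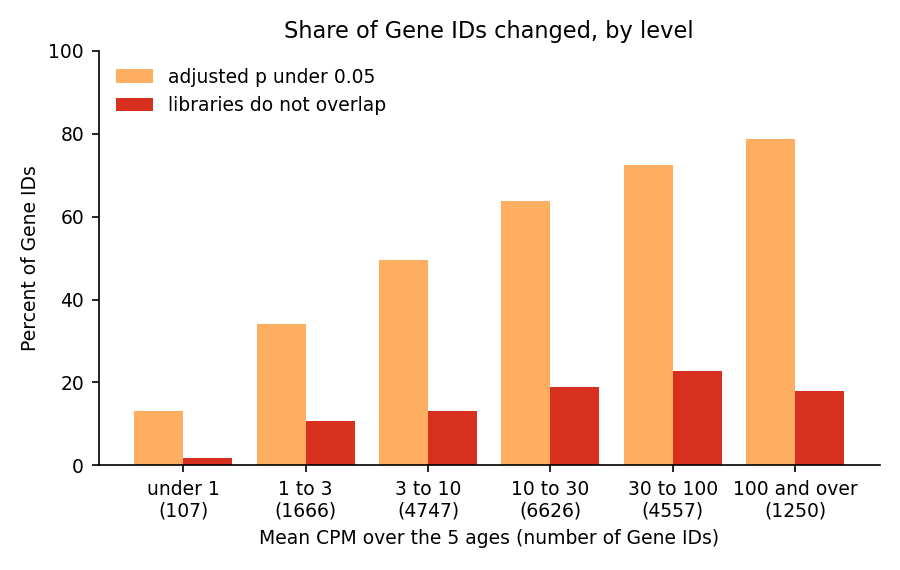
Percent of Gene IDs (y axis) with an adjusted p under 0.05 and with libraries that do not overlap between the sides, by mean CPM over the 5 ages (x axis, number of Gene IDs below each class). The share past the test rises from 13.1% to 78.8% with level, and the share of separated Gene IDs peaks at 22.7% for 30 to 100 CPM.

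Many Gene IDs sum several assembled transcripts, and these mostly moved with their sum. Of 3751 transcripts with at least 100 counts under the consistently higher Gene IDs, 3659 (97.5%) had a higher mean at the middle ages, and of 2862 under the consistently lower ones, 2674 (93.4%) had a lower mean. Among Gene IDs with at least 2 such transcripts, all went the same way in 783 of 850 and in 528 of 672. The sums are made of these transcripts, so this describes their make-up and is not a separate measurement. Of these single transcripts 2157 (57.5%) and 1200 (41.9%) were separated in the direction of their sum, while the sums were all separated by choice. Under all tested Gene IDs, 19309 of 35091 such transcripts (55%) had a higher mean at the middle ages. There 3240 (9.23%) were separated as higher and 1758 as lower. Tested on their own, 18351 of 46996 transcripts (39%) changed, 8224 higher and 10127 lower at the middle ages (edgeR, adjusted p under 0.05), so the even split of Gene IDs did not hold for transcripts.

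Transcripts counted almost only at a single age, or at 13 and 14 dpf, were spread unevenly. The rule asked for at least 20 counts at that age, or at each of 13 and 14 dpf, and under 3 at every other age. Such transcripts numbered 8613, of which 7641 were those of 5 dpf. They occurred under 4590 of the 18953 tested Gene IDs (24.2%). They occurred under 746 of the 1481 consistently lower Gene IDs (50.4%) and under 183 of the 1832 consistently higher ones (9.99%). Transcripts of 5 dpf add almost only to the early side of a sum, so this contrast is partly built in. The lower set also had more transcripts per Gene ID, with a median of 7 against 4. With those transcripts left out, 1640 Gene IDs were consistently higher and 1574 consistently lower, where rises had been 55.3% of the consistent set. The scaling moved as well. The 4 named Gene IDs hold none of these transcripts, yet all had lower log2 fold changes in that fit, with 3.64 in place of 3.72 for 108270013. With the transcripts kept, DESeq2's size factors gave 1714 consistently higher and 1600 lower. The part of scaling in the more even split was not tested. Falls of at least 4-fold dropped from 214 to 131, while rises of that size went from 423 to 372.

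Overall library make-up did not separate the sides. At an equal depth of 2376001 counts, 20018 ± 572 (SD, n = 4) Gene IDs were expected to be seen in an early library and 20278 ± 447 (SD, n = 6) in a middle one (exact two-sided permutation test over libraries, p = 0.429, adjusted p = 0.841 over 5 measures). The 20 highest Gene IDs held 23% ± 5.57 (SD, n = 4) and 25.7% ± 6.91 (SD, n = 6) of the counts (exact permutation p = 0.505, adjusted p = 0.841). That share followed age within the sides: it was 18.2% in both libraries of 5 dpf but 26.8% and 28.7% in those of 3 dpf, and 34.3% and 34.7% in the libraries of 14 dpf but 19.6% to 22.9% in the other 4 middle ones. Transcripts expected at equal depth numbered 66796 ± 8563 (SD, n = 4) and 65220 ± 5794 (SD, n = 6) (exact permutation p = 0.729, adjusted p = 0.886). The share of counts under Gene IDs not made of digits (exact permutation p = 0.886, adjusted p = 0.886) and the share of values above 0 that are not whole (exact permutation p = 0.495, adjusted p = 0.841) did not pass either. The smallest p that the 210 assignments allow is 0.00476. Libraries of an age share that age, so these permutation tests treat them as more independent than they may be.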

How the data were processed

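The labels name a Qiagen RNeasy Plus extraction, removal of ribosomal RNA and a NEBNext Ultra library kit. Named in the submitters' processing notes, with no role given, are RSEM, DESeq2, Trimmomatic 0.36, FastQC and CASAVA 1.9.1. The authors deposited expected counts, estimated per assembled transcript, in a single table of 172513 lines with Trinity identifiers and Gene IDs. For the assembly version, the source of the Gene IDs, the use of strand and any genome build, the answer is not given in the sources used here. RSEM shares reads among similar transcripts, and near-identical copies under different Gene IDs remain uncertain.

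Counts were summed over the 166841 lines whose Gene ID is made of digits and rounded. The other 5672 lines, with 0.351% to 0.956% of the counts in the 10 libraries, were left out. edgeR 4.0.16 in R 4.3.3 fitted the 10 libraries with age as the only term, TMM scaling, filterByExpr (minimum count 10) and a contrast of the mean of 3 ages against the mean of 2. The 17 and 24 dpf libraries entered no test. Log2 CPM used a prior count of 2. The fold averages log2 levels over ages. Consistent change was read from CPM. Alternatives used limma 3.58.1 and DESeq2 1.42.0.

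Named Gene IDs were the 2 in each direction with the widest gap among those past the test, consistent, with at least 5 counts in all 10 libraries and at least 10 CPM on the higher side. The comparison, its rules and lists were chosen with earlier results of these data known. Gene lists prepared by symbol could not be used. The 2 libraries of each age differed by more than counting noise: the mean chi-square per Gene ID with at least 50 counts was 1.34 to 9.55. It was highest at 13 dpf (9.55), against 1.35 at 14 dpf and 1.34 at 16 dpf.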

Additional observations from a re-analysis of the deposited data

Results flagged for a closer look

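The 2 Gene IDs named for their rise had a signal in libraries that entered no comparison. With all 14 libraries scaled together, the 17 dpf libraries had 581 and 490 CPM of Gene ID 108259354, and those of 24 dpf 1683 and 363 CPM, above each early library. Gene ID 108270013 had 85.3 and 63.7 CPM at 17 dpf, also above each early library. At 24 dpf its libraries had 17.6 and 4.12 CPM, which were not both above them. Only the Gene IDs that rose were screened in this way. Of those that fell, 108257051 had 4.59 and 6.3 CPM at 16 dpf and 29.7 and 22 CPM at 24 dpf. Gene ID 108273473 had 15.1 to 20.3 CPM at 17 and 24 dpf, against 5.15 to 8.32 CPM in the middle libraries. Both stayed below each early library. In 22 tests for a library far from the others of its side, on library measures and on the named Gene IDs, 0 were found. Chance gives about 1 in 20 only for independent values, which libraries of the same age are not. A far value can be masked by the other library of its age, so the 0 says little about outlying libraries.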

How the results depend on the processing

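Of 610 alternative values, 546 kept their direction and side of the threshold or stayed within 1.5 times, and 64 did not. Part of the 546 was fixed in advance. The CPM behind consistent change are the same in limma-voom, DESeq2's test and the replicate block, which each gave 3313 again. Most counts of Gene IDs seen on one side only were 0 set against 0. Scaling by DESeq2's factors, the upper quartile or unscaled totals left counts within that range, as did both filters, limma-voom, DESeq2's test, all 14 libraries together, Gene IDs of every form, leaving out age-restricted transcripts and leaving out the 20 highest Gene IDs, except that falls of at least 4-fold were 323 by limma-voom and 131 without age-restricted transcripts. The median log2 fold change stayed within -0.03 to 0.03 under these.

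The model of the spread mattered most. With side alone, which takes libraries of an age as independent, 3877 Gene IDs changed, 2011 higher and 1866 lower. With age as a random block 72 changed, 41 higher and 31 lower, and 41 and 31 of these were consistent. A log2 fold limit of 1 left 1223 (6.45%), 725 higher and 498 lower, of which 516 and 337 were consistent. A gap of at least 1 log2 unit left 147 consistent Gene IDs of the 18953 tested, 112 higher and 35 lower. Both limits can only lower a count.

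With transcripts in place of sums, more units were tested (46996) and 18351 changed, 10127 of them lower. Of these transcripts 5470 were consistently changed, 2861 lower, and 2833 of those lower passed the test. Within the early ages 19237 changed and among the middle ages 20847. Leaving out an age leaves fewer libraries to separate. Without 3 or 5 dpf a single early age remains, so those counts cannot be compared with the count without 13 dpf. Without 3 dpf 7867 were consistent, 3532 higher and 4335 lower, with 3379 and 4210 past the test. Without 5 dpf 7614 were, 3932 higher and 3682 lower, with 3612 and 3475 past the test. Without 13 dpf 5905 were, 3363 higher and 2542 lower, with 3327 and 2512 past the test. A minimum of 1 count gave 18 and 7 of the 23837 Gene IDs seen on the middle or early side alone.

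Without a single library, taken in turn, 10152 to 11678 changed, 4998 to 5811 higher and 5140 to 5867 lower. Consistent Gene IDs numbered 3480 to 4020, with 1874 to 2216 higher and 1574 to 1948 lower. Past the test as well were 1844 to 2164 and 1553 to 1870. There were 7026 to 9958 changed within the early ages and 10299 to 12246 among the middle ages. The difference in transcripts expected at equal depth, -1576, was -4048 to 1056 and turned positive without replicate 1 (731) or 2 (1056) of 5 dpf. The difference in the percent of counts under other Gene IDs, -0.0246, was -0.0919 to 0.029 and turned positive without replicate 2 of 5 dpf (0.0224) or replicate 1 (0.0248) or 2 (0.029) of 16 dpf. No library measure passed the test in any of these.

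Libraries with the same replicate number did not deviate together, with correlations of -0.0273 to 0.0267 over 10 pairs of ages. The counts thus gave no sign that the number pairs samples. With 2 libraries of an age a weak shared effect could be missed, and the labels do not settle it. With the replicate block 11295 Gene IDs changed, 5667 higher and 5628 lower, 9052 within the early ages and 11923 among the middle ages. Of the 10 libraries compared, those of 3 dpf had the fewest counts, which limits calls for low Gene IDs.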
